A study of Mus musculus with 4 samples.

Results

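The comparison concerns the first end zone of the mouse tibialis anterior, a fast hindlimb muscle that lifts the foot, against the zone next to it. The members are cross-sections of 4 muscles, which form 1 group and for which the labels name no treatment or genotype. Per the labels' protocols each muscle was cryosectioned, RNA of each section was extracted with TRIzol, and its transcripts were counted under a section barcode by TOMO-seq, which reads transcript ends with CEL-Seq2 primers. Age, sex and strain are not in the labels, nor whether each muscle is from its own mouse, so the p-values below measure only the spread between these samples.

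A section counted as kept when its column reappeared, times 1 factor, in the normalized table that the authors deposited for that muscle. Its relative position is its barcode number scaled from 0 at the first kept section to 1 at the last. The first end zone held the sections at 0 to under 0.2 and the adjacent zone those at 0.2 to under 0.4. These were 35 and 32 of 171 kept sections, with 7, 9, 10 and 9 sections in the first end zone of muscles 1 to 4 and 7, 9, 8 and 8 in the adjacent zone. The labels do not say which anatomical end the first sections are, that it is the same end in each muscle, or that barcode numbers follow the order of cutting.

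As background, a muscle fibre passes its force to tendon at the myotendinous junction, at its ends, through laminin-binding integrins and a folded membrane. It receives its nerve at the neuromuscular junction, a small patch usually away from the fibre's ends, where a few nuclei transcribe the acetylcholine receptor subunits. Between the fibres lie fibro-adipogenic progenitors, which make most of the matrix, and the Schwann cells of the motor nerve branches, capillaries and macrophages.

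Counts were summed per muscle and zone, giving 8 sums of 2975013 to 6156666 transcripts. Mitochondrially encoded transcripts made up 62.9%, 65.5%, 64.5% and 66.5% of the first end zone in muscles 1 to 4 and 62.2%, 60.3%, 62.7% and 71.8% of the adjacent zone. Single sections ranged from 86190 to 939435 transcripts in the first end zone and from 111794 to 1159697 in the adjacent zone. The fast myosins Myh4 and Myh1 and the muscle creatine kinase Ckm were abundant in all 8 sums, as in a fast muscle. Levels below are CPM scaled by edgeR's TMM factors. Those of single sections or of steps of 0.1 in relative position are instead CPM of the section totals. The TMM factors were 0.995, 0.974, 1.08 and 0.894 in the first end zone of muscles 1 to 4. In the adjacent zone they were 1.04, 1.15, 1.15 and 0.778.

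Of 7452 genes tested with edgeR's quasi-likelihood test, with the muscle as a block, 35 passed a Benjamini-Hochberg adjusted p of 0.05, which is 0.470% of the genes. In the first end zone 8 were higher (0.107%) and 27 lower (0.362%). On the TMM scale all 8 rises were higher in all 4 muscles, as were 9.06% of all genes tested. Of the 27 falls 24 were lower in all 4, as were 7.54%. Strand use in counting is not stated, and 15 of the 35 genes overlap an antisense gene. The levels of the 4 muscles did not overlap between the zones for 8 of the 35 genes, against 85 (1.14%) of all genes tested. The median log2 difference of all genes was 0.01, with 3566 of the 7452 below 0. At an unadjusted p of 0.05, 312 genes were higher and 334 lower, and the unadjusted counts of the lists below stand beside these. Without muscle 2 the count was 19 and without muscle 3 it was 17, and DESeq2 called 2 genes, Ankrd1 and Mss51, both higher. The test borrows most of its error from all genes, and an exact test on 4 within-muscle differences of a single gene could not go below p = 0.125. In summed sections, fewer cells of a type and less RNA per cell cannot be told apart.

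**Figure D1:**
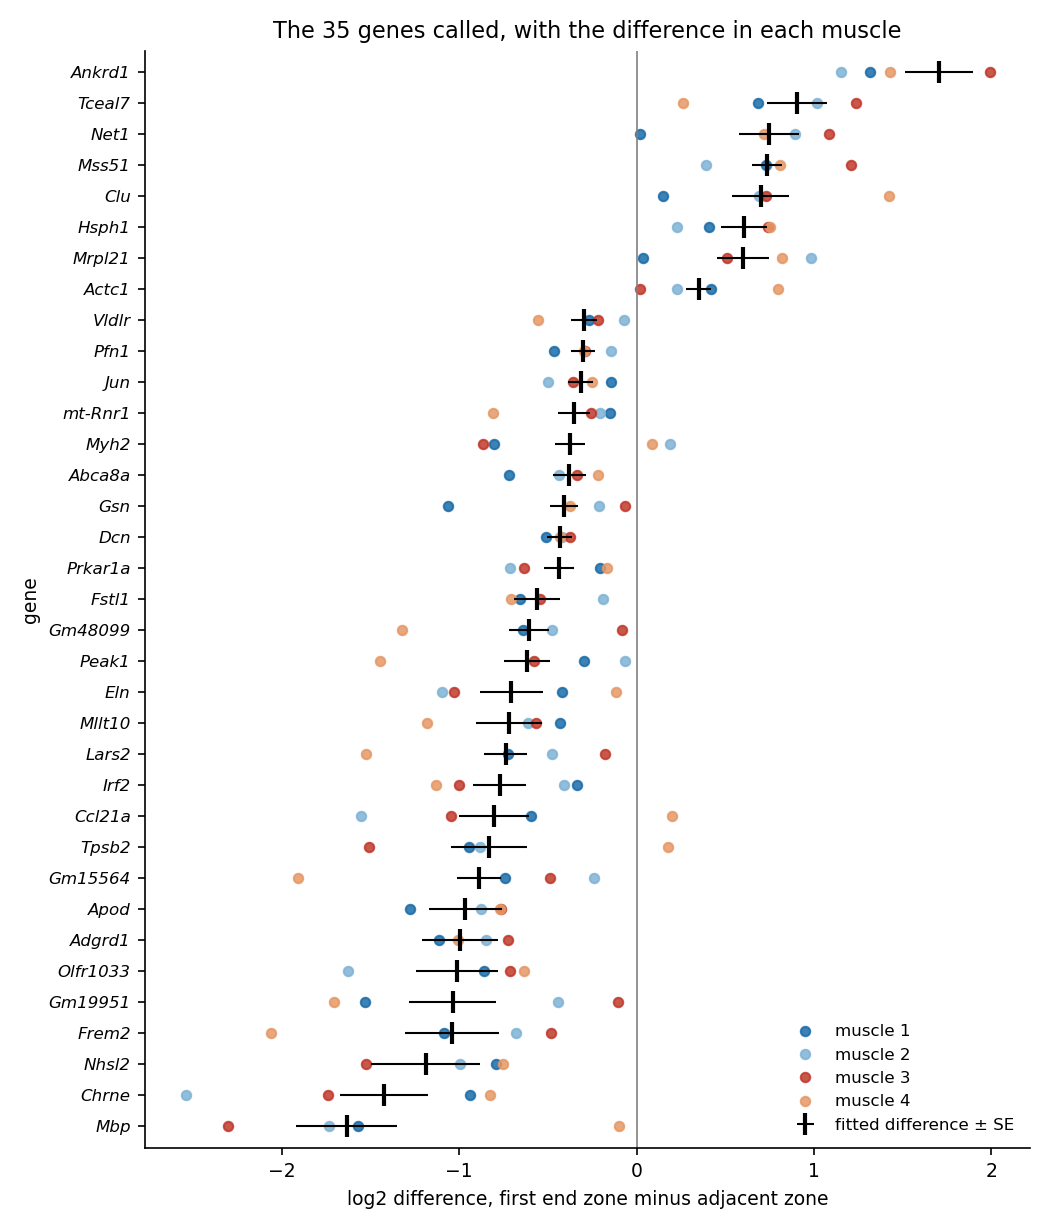
Log2 difference, first end zone minus adjacent zone, of the 35 genes called, with the fitted difference (black tick) and its SE (bar) and the difference in each of 4 muscles (coloured points). Ankrd1 has the highest fitted difference, 1.70, and Mbp the lowest, -1.63, and the points of Myh2, Ccl21a and Tpsb2 lie on both sides of 0.

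Ankrd1, a titin-binding ankyrin-repeat protein that rises in stretched muscle, was the gene that differed most towards the end. Its level in the first end zone was 10.5, 13.5, 22.8 and 6.19 CPM in muscles 1 to 4, and in the adjacent zone it was 3.90, 5.78, 5.36 and 1.99 CPM. Every end value lay above every adjacent value, although the lowest of the first, in muscle 4, was close to the highest of the second. The fitted log2 difference was 1.70 ± 0.19 (SE, edgeR adjusted p = 5.37e-10). The sums behind it held 33, 39, 121 and 30 transcripts at the end and 14, 26, 38 and 5 next to it. The difference was called without each muscle in turn.

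Within the first end zone the mean level of Ankrd1 was higher in the outer step than in the inner one, though not in every muscle. In 4 steps of 0.1 in relative position its level was 21.1 ± 18 CPM (SD, n = 4), 8.90 ± 4.33, 4.62 ± 3.15 and 4.80 ± 2.48. The first section held 33.5 CPM in muscle 1, 33.4 in muscle 2 and 46.4 in muscle 3, and the highest section of all, at 120 CPM, was the third of muscle 3. Muscle 4 differed in shape: its first 2 sections had no Ankrd1 transcript and its highest section of the zone reached 10.3 CPM. Without the outermost 2 sections at each end of every muscle the difference was 1.49 on the log2 scale and was still called.

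**Figure D2:**
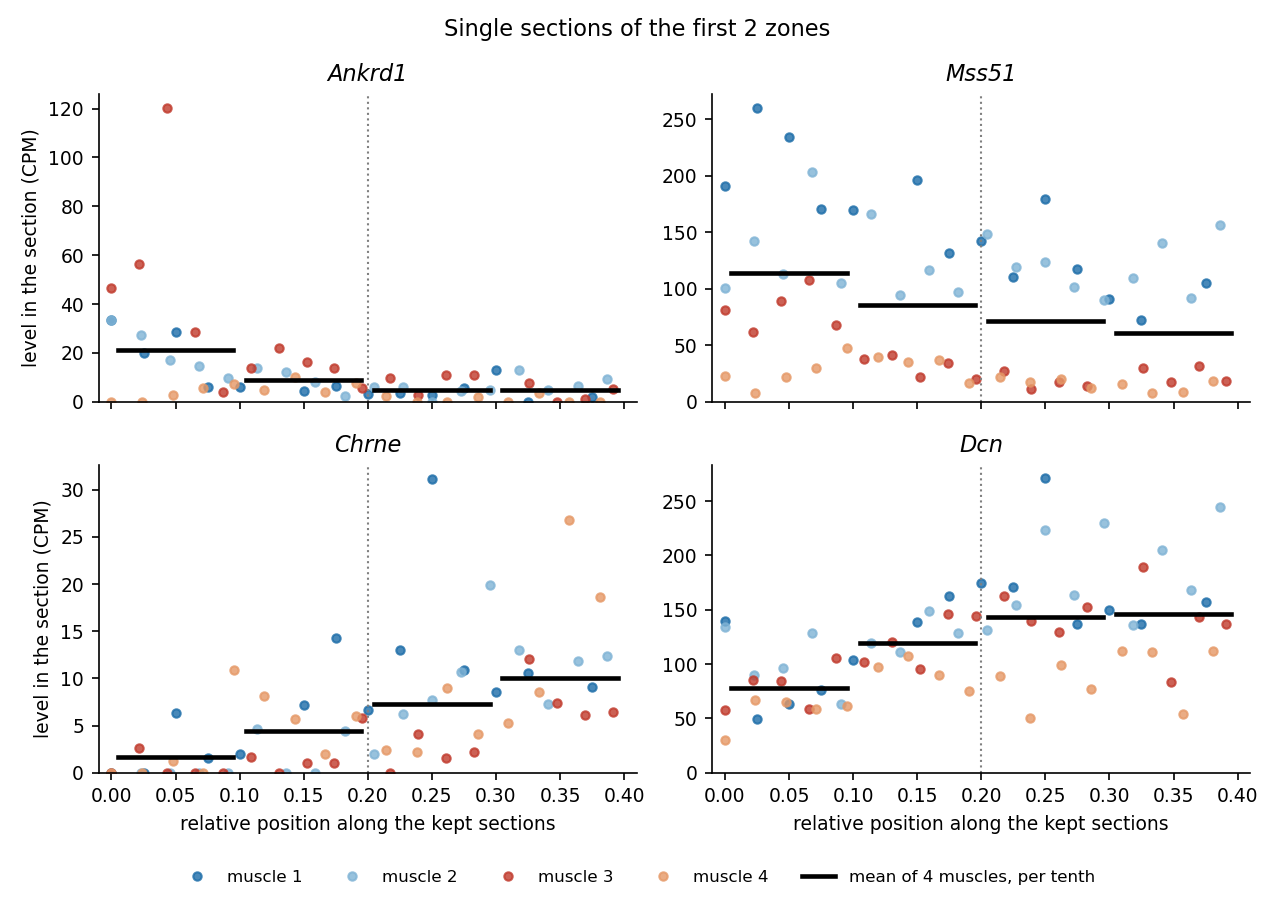
Level in CPM of single sections, by relative position from 0 to 0.4, for 4 muscles (colours), with the mean over muscles for each step of 0.1 (black bars) and the border between the zones (dotted). The mean of Ankrd1 goes from 21.1 to 8.90 CPM between the 2 steps of the first zone, while the means of Chrne and Dcn climb across it.

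A stretch of the Ankrd1 start region is shown because it holds the letters of the MCAT element (CATTCC, sought on both strands), the core that TEAD factors bind, and Ankrd1 is a known target of TEAD and its partner YAP. The 30 bases lie at chr19:36119950-36119979 on the minus strand (GRCm38.p6, RefSeq), with the match to the reverse letters in capitals, 123 to 118 bases before the RefSeq start. Both matches named here lie inside the gene as GENCODE annotates it, since another transcript there starts further upstream and its untranslated region reaches into the window, so only a short stretch is shown.
Ankrd1: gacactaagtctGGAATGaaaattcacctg
A second match lies 210 to 205 bases before the RefSeq start. The letters occur in the 250 bases before the start of 12.6% of 32851 RefSeq promoters, so the match describes the sequence and no binding was measured.

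The other junction genes did not move with Ankrd1. Of 18 genes listed for the myotendinous junction 15 could be tested, and Ankrd1 was the only one called. The median log2 difference of the 15 was -0.01, beside 0.01 for all genes. Integrin alpha 7 (Itga7), the laminin receptor of the fibre end, differed by 0.17 ± 0.13 (SE) on the log2 scale, its partner Itgb1 by 0.11 ± 0.09 and the tendon-side thrombospondin Thbs4 by 0.01 ± 0.11. The actin-bundling adaptor Nrap differed by -0.07 ± 0.07 and Xirp1 by -0.33 ± 0.16, both without passing the test. Col22a1, the collagen that marks the junction, had too few transcripts to be tested. Among 14 stretch-responsive genes Ankrd1 was again the only one called, and its relatives Ankrd2 and Ankrd23 differed by -0.33 ± 0.16 and 0.11 ± 0.06.

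Mss51, a mitochondrial protein of fast muscle linked to myostatin signalling, rose in the first end zone. Its level there was 182, 134, 44.1 and 33.8 CPM in muscles 1 to 4, against 110, 102, 18.8 and 19.1 CPM in the adjacent zone. Muscles 1 and 2 were above muscles 3 and 4 in both zones, so the zones overlapped across muscles. On the TMM scale every muscle was higher at its end. In muscle 2, however, the median of the single sections was 113 CPM at the end and 119 CPM next to it. The log2 difference was 0.74 ± 0.09 (SE, edgeR adjusted p = 2.43e-09). In the 4 steps of 0.1 its mean went from 114 ± 74.2 (SD, n = 4) to 86 ± 66.3, 71.8 ± 63.6 and 60.5 ± 50.5 CPM. In the fit of all 20 zone sums its adjusted p was 0.0621.

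Tceal7, Net1 and Actc1 rose as well. Tceal7, a small nuclear protein of the TCEAL/BEX family, held 21, 14.5, 13 and 8.66 CPM at the end and 12.8, 6.89, 5.22 and 7.16 CPM next to it, a log2 difference of 0.91 ± 0.17 (SE, edgeR adjusted p = 0.000661). Each muscle was higher at its end, but the 2 ranges overlapped, and the call was lost without muscle 3. Its transcripts share 14.9% of their 30-base words with other genes, mostly Bex1, which lies antisense to it. Net1, an exchange factor for the GTPase RhoA, held 13, 18.6, 14.3 and 9.49 CPM against 12.8, 9.79, 6.49 and 5.57 CPM, with muscle 1 nearly level, and differed by 0.75 ± 0.17 (edgeR adjusted p = 0.0101). In muscle 1 the median of the single sections was lower at the end, 10.1 against 14.6 CPM. Net1 was not called without muscle 2 or 3, and its transcripts share 13.7% of their 30-base words with other genes, mostly Gm8990. Actc1, the cardiac actin that skeletal fibres express while they form, held 782, 226, 175 and 216 CPM against 585, 192, 172 and 124 CPM. Its difference of 0.35 ± 0.07 (edgeR adjusted p = 0.00189) was near 0 in muscle 3 and was not called without muscle 1 or 4. The median of its single sections was lower at the end in muscle 2 (209 against 226 CPM) and muscle 3 (169 against 176 CPM). In muscles 1 and 4 that median was higher at the end. Over 5 equal zones the mean of Actc1 went from 363 ± 296 (SD, n = 4) and 278 ± 217 to 156 ± 127, 141 ± 124 and 118 ± 104 CPM, on the scale of all 20 sums.

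Clu, Hsph1 and Mrpl21 were the other 3. The secreted chaperone clusterin (Clu) held 14.6, 19.7, 13.2 and 13.6 CPM at the end and 13.1, 12, 7.76 and 4.77 CPM next to it, with no overlap, and differed by 0.70 ± 0.16 (SE, edgeR adjusted p = 0.0103). The heat shock protein Hsph1, a partner of Hsp70, differed by 0.61 ± 0.13 (edgeR adjusted p = 0.00578), with values of 10.2 to 31.7 CPM at the end and 7.53 to 18.8 CPM next to it, and was not called without muscle 3. The mitochondrial ribosomal protein Mrpl21 differed by 0.60 ± 0.15 (edgeR adjusted p = 0.0265) and did not overlap on the TMM scale, at 14.3 to 20.7 against 10.2 to 13.9 CPM. Muscle 1 was almost level, with 45 of 3166134 transcripts at the end and 50 of 3445668 next to it. Clu and Mrpl21 each lost the call without muscle 2, 3 or 4. Ighmbp2 lies antisense to Mrpl21, so reads of the pair may be mixed.

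Chrne, the epsilon subunit that makes the acetylcholine receptor of the synapse its adult form, fell in the first end zone. Its level there was 5.72, 1.03, 1.13 and 5.16 CPM in muscles 1 to 4, and 11.4, 8.45, 4.94 and 9.54 CPM in the adjacent zone. Every muscle was lower at its end, with the largest gap in muscle 2, and the ranges overlapped, since the adjacent zone of muscle 3 lay below the end zones of muscles 1 and 4. The log2 difference was -1.43 ± 0.25 (SE, edgeR adjusted p = 0.000157). The end sums held 18, 3, 6 and 25 transcripts and the adjacent sums 41, 38, 35 and 24. In muscle 2, 7 of 9 end sections had no Chrne transcript while all 9 adjacent sections had at least 1. In the 4 steps of 0.1 the mean went from 1.63 ± 1.63 (SD, n = 4) to 4.48 ± 3.06, 7.26 ± 5.07 and 10.1 ± 1.45 CPM. With zones cut at 0.15 and 0.3 the difference was -1.29 and was not called (edgeR adjusted p = 0.122).

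The bases before the Chrne start are shown because this promoter carries the N-box (CCGGAA), the element through which ETS factors restrict the gene to nuclei under the synapse, together with an E-box (CAGCTG), which myogenic factors bind. The 228 bases lie at chr11:70619217-70619444 on the minus strand (GRCm38.p6, RefSeq), upstream of the longest annotated first exon, with both elements in capitals.
Chrne: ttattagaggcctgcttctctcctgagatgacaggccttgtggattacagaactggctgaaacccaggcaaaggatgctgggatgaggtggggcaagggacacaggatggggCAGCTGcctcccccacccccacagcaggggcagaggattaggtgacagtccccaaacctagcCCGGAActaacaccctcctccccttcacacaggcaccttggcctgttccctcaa
The E-box is at 138 to 133 and the N-box at 76 to 71 bases before the start, and they do not overlap. Sought on both strands, CCGGAA occurs in the same 250 bases of 12% of RefSeq promoters and CAGCTG in 13%. Chrne transcripts share no 30-base word with another gene, but 4930544D05Rik lies antisense to it.

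Of 18 genes listed for the neuromuscular junction 10 could be tested, 2 were called, both lower, and 8 had a difference below 0. Their median was -0.42, beside 0.01 for all genes, and it was negative in each muscle (-0.44, -0.53, -0.25 and -0.15). The second called gene was Prkar1a, a regulatory subunit of protein kinase A that is enriched at the synapse but made in many cells. It held 50.5, 37.6, 51.9 and 72.4 CPM at the end and 58.3, 62, 80.7 and 81.5 CPM next to it. On this TMM scale it was lower in each muscle with overlapping ranges (log2 difference -0.44 ± 0.09 SE, edgeR adjusted p = 0.00128). In muscle 4, however, the median of its single sections was 66.1 CPM at the end and 65.6 CPM next to it. The call of Prkar1a was lost without muscle 2 or 3. Acetylcholinesterase (Ache) differed by -0.66 ± 0.28, the receptor kinase Musk by -0.49 ± 0.29 and Phldb2 by -0.56 ± 0.26, none past the adjusted threshold. Chrnb1, a receptor subunit, and the anchor Rapsn differed by 0.13 ± 0.14 and -0.03 ± 0.19. Dok7, the activator of Musk, had the highest difference of the list, 0.54 ± 0.30, and was not called (edgeR adjusted p = 0.608). The receptor subunits Chrna1 and Chrnd and the ETS factor Etv5 had too few transcripts to be tested.

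**Figure D3:**
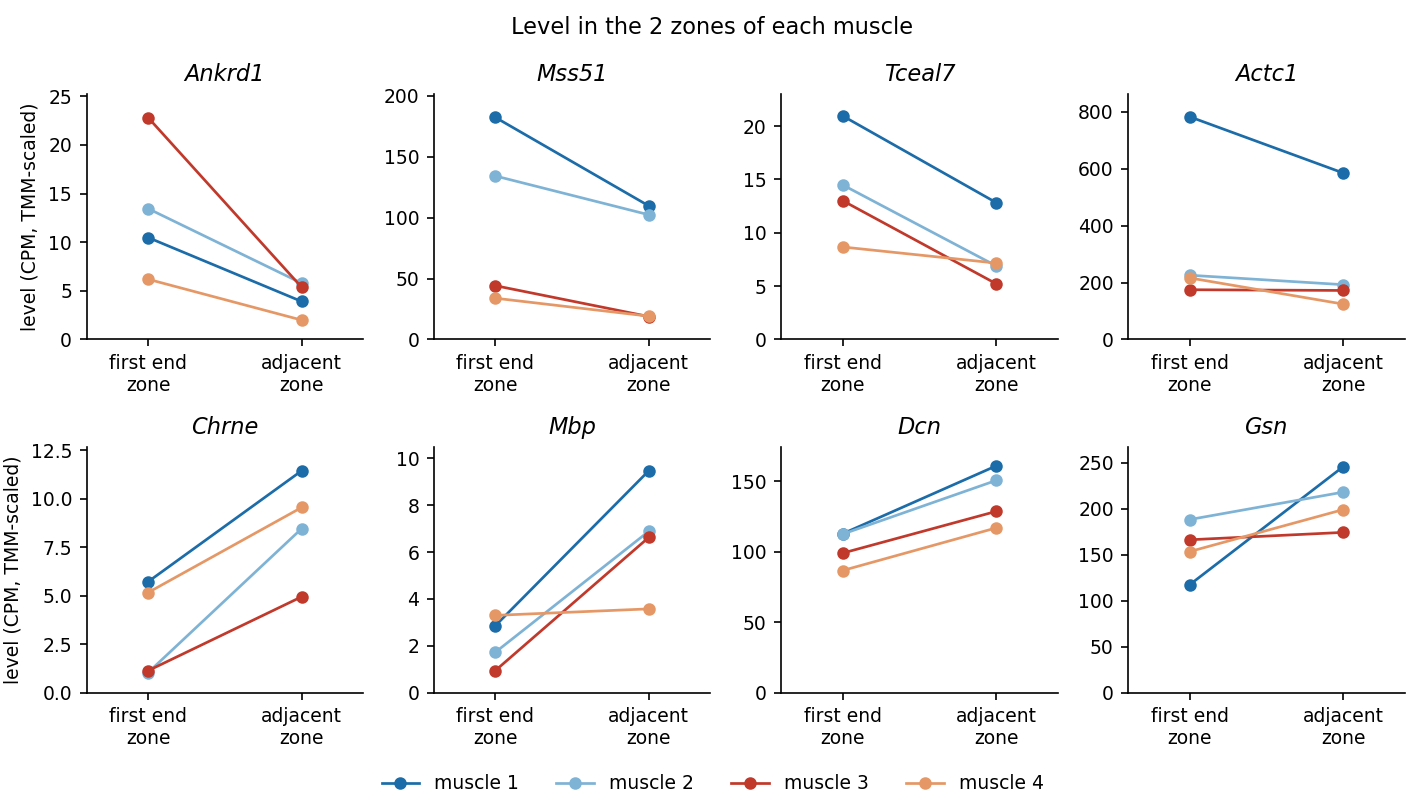
Level in TMM-scaled CPM in the first end zone and the adjacent zone, with 1 line for each of 4 muscles and a linear axis from 0. In the upper row every line of Ankrd1, Mss51, Tceal7 and Actc1 descends from the end, and in the lower row every line of Chrne, Mbp, Dcn and Gsn ascends.

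Mbp, the myelin basic protein of Schwann cells, fell most of all genes. It held 2.86, 1.72, 0.943 and 3.30 CPM in the first end zone and 9.48, 6.89, 6.63 and 3.58 CPM in the adjacent zone. On the TMM scale the zones did not overlap, but muscle 4 was nearly level while muscles 1 to 3 were all far lower at the end. In muscle 4 the median of the single sections was higher at the end, 1.88 against 1.10 CPM. There 1 of 9 end sections and 4 of 8 adjacent sections had no Mbp transcript. The log2 difference was -1.63 ± 0.29 (SE, edgeR adjusted p = 0.000157), on sums of 9, 5, 5 and 16 transcripts at the end and 34, 31, 47 and 9 next to it. With zones cut at 0.25 and 0.5 it was -0.57 and was not called (edgeR adjusted p = 0.526). Over 5 zones, on the scale of all 20 sums, Mbp was highest in the adjacent zone, at 6.90 ± 2.44 CPM (SD, n = 4), against 2.30 ± 1.12 at the first end and 3.61 ± 0.17, 2.52 ± 0.93 and 1.3 ± 0.60 in the zones beyond.

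Other Schwann cell genes lay below 0 without being called. Of 12 listed, 5 could be tested, all with a negative difference and a median of -0.69. Pmp22, a protein of compact myelin, held 7.30, 5.86, 5.09 and 10.1 CPM at the end and 12.5, 12.2, 10.2 and 9.94 CPM next to it, and differed by -0.69 ± 0.18 (SE, edgeR adjusted p = 0.0601). Muscles 1 to 3 were lower at the end and muscle 4 was nearly level, and the median of the list was 0.02 in muscle 4 alone. The list's summed level was 17.6 to 45 CPM at the end and 35 to 54.6 CPM next to it.

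Dcn and Gsn, genes of the cells that make connective tissue, fell at the end. Decorin (Dcn), a small proteoglycan that coats collagen fibrils, held 113, 112, 99.0 and 86.6 CPM in the first end zone and 161, 151, 129 and 117 CPM in the adjacent zone. The ranges did not overlap and the 4 muscles differed by similar amounts, -0.51, -0.42, -0.38 and -0.43 on the log2 scale (fitted -0.43 ± 0.07 SE, edgeR adjusted p = 2.98e-05). In the 4 steps of 0.1 the mean of Dcn went from 78.5 ± 14.8 (SD, n = 4) to 120 ± 18.7, 143 ± 45.3 and 146 ± 30.5 CPM. Gelsolin (Gsn), an actin-severing protein abundant in fibroblasts, held 117, 188, 166 and 153 CPM against 246, 218, 174 and 199 CPM. Each muscle was lower at its end, muscle 1 by the most, and the difference of -0.41 ± 0.08 (edgeR adjusted p = 0.000661) was not called without muscle 1.

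Dcn and Gsn were the 2 called of 11 tested and 14 listed genes of fibro-adipogenic progenitors, of which 10 had a negative difference and 8 were lower in all 4 muscles, beside 562 of all genes (7.54%). The median was -0.37. The receptor Pdgfra, which defines these cells, differed by -0.44 ± 0.24 (SE) and the matrix protein Lum by -0.75 ± 0.24, neither called, although Lum did not overlap (2.54 to 5.09 against 5.30 to 8.75 CPM). The list's summed level was 422 to 565 CPM at the end and 586 to 643 CPM next to it, with no overlap. Dcn and Gsn are large parts of these sums (86.6 to 113 and 117 to 188 CPM at the end). The gap therefore partly repeats their falls. The median was -0.34, -0.33, -0.26 and -0.15 in muscles 1 to 4 and stayed below 0 under all 20 alternative settings.

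Among collagens and other matrix genes 1 of 25 tested was called, and 24 of the 25 had a negative difference, with a median of -0.24. The called gene was elastin (Eln), the rubber-like fibre of vessels and fascia, which held 12.4, 6.90, 4.53 and 8.05 CPM at the end and 16.7, 15.3, 9.74 and 8.75 CPM next to it. On the TMM scale it was lower in every muscle with overlapping ranges (-0.71 ± 0.18 SE, edgeR adjusted p = 0.0324), and lost the call without muscle 2 or 3. In muscle 4 the median of its single sections was 5.83 CPM at the end and 5.80 CPM next to it. Limma called Col3a1 as well. The fibrillar collagens Col1a1, Col1a2 and Col3a1 differed by -0.04 ± 0.11, -0.06 ± 0.08 and -0.20 ± 0.09. Col1a1 was 1 of 2 genes whose zone difference itself differed between the muscles of the 2 barcode sets: it was lower at the end in muscles 1 and 2 (-0.72 and -0.76), near level in muscle 3 (-0.03) and higher in muscle 4 (0.90). Tendon cell genes had 0 of 4 tested called by edgeR, 0 at an unadjusted p of 0.05, 0 by limma or DESeq2, and a median of -0.02.

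Outside the lists, Fstl1, a secreted glycoprotein of fibroblasts, held 15.9, 12.4, 16.4 and 13.4 CPM at the end and 25.4, 14.2, 24.1 and 22.3 CPM next to it. It was lower in each muscle, by the least in muscle 2 (-0.56 ± 0.13 SE, edgeR adjusted p = 0.0137), and was called only with muscles 1, 3 and 4 all present. Abca8a, a lipid transporter, differed by -0.38 ± 0.09 (edgeR adjusted p = 0.0265) and lost the call without muscle 1, 2 or 3. Apod, a lipid carrier of fibroblasts and nerve sheath, lay under the 10 CPM used to name genes and was chosen after its values were seen. It held 4.76, 4.14, 5.28 and 5.16 CPM at the end and 12.3, 8.01, 9.32 and 9.14 CPM next to it, with no overlap (-0.97 ± 0.21, edgeR adjusted p = 0.00484), and lost the call without muscle 1 or 2.

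Among immune genes, none of 11 macrophage and dendritic genes tested was called by edgeR, limma or DESeq2, yet 10 were negative, 7 were lower at an unadjusted p of 0.05, and the median was -0.41. The complement subunit C1qc differed by -0.74 ± 0.23 (SE), the mannose receptor Mrc1 by -0.75 ± 0.28 and Csf1r, the macrophage growth factor receptor, by -0.80 ± 0.32. The mast cell tryptase Tpsb2, also chosen after its values were seen, held 7.30, 7.24, 1.51 and 6.81 CPM at the end and 14.5, 13.8, 5.22 and 5.96 CPM next to it, lower in muscles 1 to 3 only (-0.83 ± 0.21, edgeR adjusted p = 0.0396), and was not called without any 1 of those 3. The lymphatic chemokine Ccl21a held 7.94, 4.14, 4.53 and 7.84 CPM against 12.3, 13.1, 9.88 and 6.76 CPM, again lower in muscles 1 to 3 only (-0.80 ± 0.20, edgeR adjusted p = 0.0298), and was not called without muscle 2 or 3. It was the 1 called of 2 lymphatic genes tested. Copies of Ccl21a share 81.1% of its 30-base words, so some of its reads may come from those copies.

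Of 16 endothelial genes tested 0 were called by edgeR, limma or DESeq2 and 2 were lower at an unadjusted p of 0.05, with a median of -0.04. Smooth muscle and pericyte genes had 0 of 9 called by edgeR, 1 lower unadjusted and 1 called by limma (Acta2), and a median of -0.10. Erythrocyte, satellite cell and adipocyte genes had 0 of 6, 0 of 4 and 0 of 3 called, with 1, 0 and 1 higher unadjusted, and medians of 0.06, 0.11 and -0.01. Cartilage and bone, with 2 genes tested, and skin, with 1, had none called and 1 and 0 lower unadjusted. No lymphocyte, neutrophil or neuron gene had enough transcripts to be tested, and the summed levels were 1.27 to 3.51 CPM for lymphocytes and neutrophils and 1.70 to 7.25 CPM for neurons over the 8 sums. The part of these other cells in the fibre results was not tested.

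Of 3 myosin heavy chains tested only Myh2, the myosin of oxidative IIA fibres, was called, and its muscles moved in opposite directions. It held 389, 604, 134 and 110 CPM in the first end zone and 680, 529, 244 and 103 CPM in the adjacent zone. On this TMM scale it was lower at the end in muscles 1 and 3 and slightly higher in muscles 2 and 4. In muscle 2, however, the median of its single sections was lower at the end, 607 against 687 CPM. The fitted difference of -0.38 ± 0.08 (SE, edgeR adjusted p = 0.00926) was not called without muscle 1 or without muscle 3. Its transcripts share 35.1% of their 30-base words with other genes, chiefly other myosins. Myh1 (IIX) and Myh4 (IIB) differed by -0.01 ± 0.06 and -0.02 ± 0.08, and Ckm by -0.00 ± 0.08, where Myh4 and Ckm neared the ceiling of the molecular identifiers in some sections.

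Fast fibre genes lay slightly above 0 without a call: 14 of 16 were positive, 2 were higher at an unadjusted p of 0.05, and the median was 0.06. The calcium store protein Casq1 led them, at 0.22 ± 0.07 (SE, edgeR adjusted p = 0.168). Slow fibre genes had 0 of 7 called, 2 lower unadjusted and a median of -0.18, and 5 of the 12 listed, Myh7 among them, had too few transcripts. Glycolysis had 0 of 17 called with 5 higher and 1 lower unadjusted and a median of 0.08. The citric acid cycle had 0 of 21 called, with all 21 positive, beside 3886 of all 7452 genes, 4 higher unadjusted and a median of 0.09. Its median was 0.06, 0.17, -0.04 and 0.16 in muscles 1 to 4, and 4 of the 21 were higher in all 4 muscles. Nuclear oxidative phosphorylation had 0 of 61 called, 6 higher unadjusted and a median of 0.05, and fatty acid use 0 of 26, 1 higher and 0.05. In muscles 1 to 4 these 2 medians were -0.01, 0.09, 0.01 and 0.09, and -0.04, 0.18, -0.05 and 0.08. Limma and DESeq2 called none of these genes. With each section weighted equally in limma the median of all genes was -0.10, and the medians of oxidative phosphorylation and fatty acid use were then -0.01 each.

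The mitochondrially encoded genes had 1 of 15 called, the ribosomal RNA mt-Rnr1, whose identifiers were near saturation in some sections. It held 11836, 17513, 5748 and 6228 CPM at the end and 13132, 20172, 6876 and 10924 CPM next to it. It was lower in each muscle and, on the TMM scale, by far the most in muscle 4 (-0.35 ± 0.09 SE, edgeR adjusted p = 0.0388). It lost the call without any 1 of the muscles and under upper-quartile scaling. The cytochrome oxidase subunit mt-Co2 was higher at the end in each muscle, by 0.36 ± 0.11, and was not called (edgeR adjusted p = 0.157). Its mean, 69306 CPM at the end and 54970 CPM next to it on the scale of all 20 sums, was far above that of mt-Rnr1. Its identifiers were therefore near saturation too, and the mitochondrial shares given above rest in part on such values. Lars2, the mitochondrial leucyl-tRNA synthetase, held 22.5, 24.5, 20.2 and 19 CPM against 37.6, 34.2, 22.9 and 55.7 CPM (-0.74 ± 0.12, edgeR adjusted p = 4.44e-05). It was lower in each muscle and was not called without muscle 4. The non-coding Gm15564 fell too, by -0.89 ± 0.12 (edgeR adjusted p = 2.87e-07). Of its 816 words of 30 bases, 23 occur in Lars2 as well.

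Signalling and cytoskeletal genes made up the other named falls. The interferon regulatory factor Irf2 held 12.7, 13.5, 8.30 and 9.70 CPM at the end and 16.2, 18, 17.1 and 21.9 CPM next to it, with no overlap and the wider gaps in muscles 3 and 4 (-0.77 ± 0.15 SE, edgeR adjusted p = 0.00104). It was not called without muscle 3. The pseudokinase Peak1 differed by -0.62 ± 0.13 (edgeR adjusted p = 0.00321), mostly in muscle 4, without which it was not called. Jun, an immediate early transcription factor, differed by -0.31 ± 0.07, the actin-binding profilin Pfn1 by -0.30 ± 0.07 and the lipoprotein receptor Vldlr by -0.30 ± 0.07 (edgeR adjusted p = 0.0103, 0.0103 and 0.0379). Each was lower in all 4 muscles, and the call was lost without muscle 2 or 3 for Jun, without muscle 1 or 3 for Pfn1 and without any 1 muscle for Vldlr. Jun was the 1 called of 4 immediate early and stress genes tested, whose median was -0.13, and its antisense gene Junos shares part of its sequence.

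The other 7 called genes were chosen for mention after their values were seen, being below 10 CPM or clones. They were the adhesion receptor Adgrd1 (-0.99 ± 0.22 SE), the basement membrane protein Frem2 (-1.04 ± 0.26), Nhsl2 (-1.19 ± 0.31), the olfactory receptor gene Olfr1033 (-1.01 ± 0.23), Mllt10 (-0.72 ± 0.19) and the clones Gm19951 (-1.04 ± 0.25) and Gm48099 (-0.61 ± 0.11). All 7 were lower in all 4 muscles, though some sums were very small. Frem2 held 3 transcripts at the end and 7 next to it in muscle 3, and 0 and 4 in muscle 4. For Gm19951 these sums were 4 and 6 in muscle 3 and 6 and 13 in muscle 4. Nhsl2 held 10, 8, 4 and 7 at the end and 21, 27, 22 and 7 next to it. Nhsl2 and Mllt10 lost the call without any 1 muscle, Adgrd1 and Olfr1033 without muscle 1 or 2, and Gm19951 without muscle 1 or 4. Mllt10 and Olfr1033 share 11.3% and 10.8% of their 30-base words with other genes, mostly Dnajc1 and Olfr1032.

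Of the remaining lists, those of calcium handling to ribosomal proteins held no call by edgeR, limma or DESeq2. Calcium handling had 18 genes tested, 3 higher unadjusted and a median of 0.03, and the Z-disc and M-band had 25, 3 lower and -0.01. Atrophy had 12 tested, none unadjusted and -0.11, oxygen handling 9, 1 each way and 0.02, and limb patterning 12, 1 higher and -0.03. Circadian and fibre regulators had 21, 1 lower and -0.03, and cytosolic ribosomal proteins 47, 2 higher and 0.02. In the list of immature or denervated fibre genes Actc1 was the 1 called of 5, and the neural adhesion molecule Ncam1 differed by -0.82 ± 0.33 (SE) without a call.

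**Figure D4:**
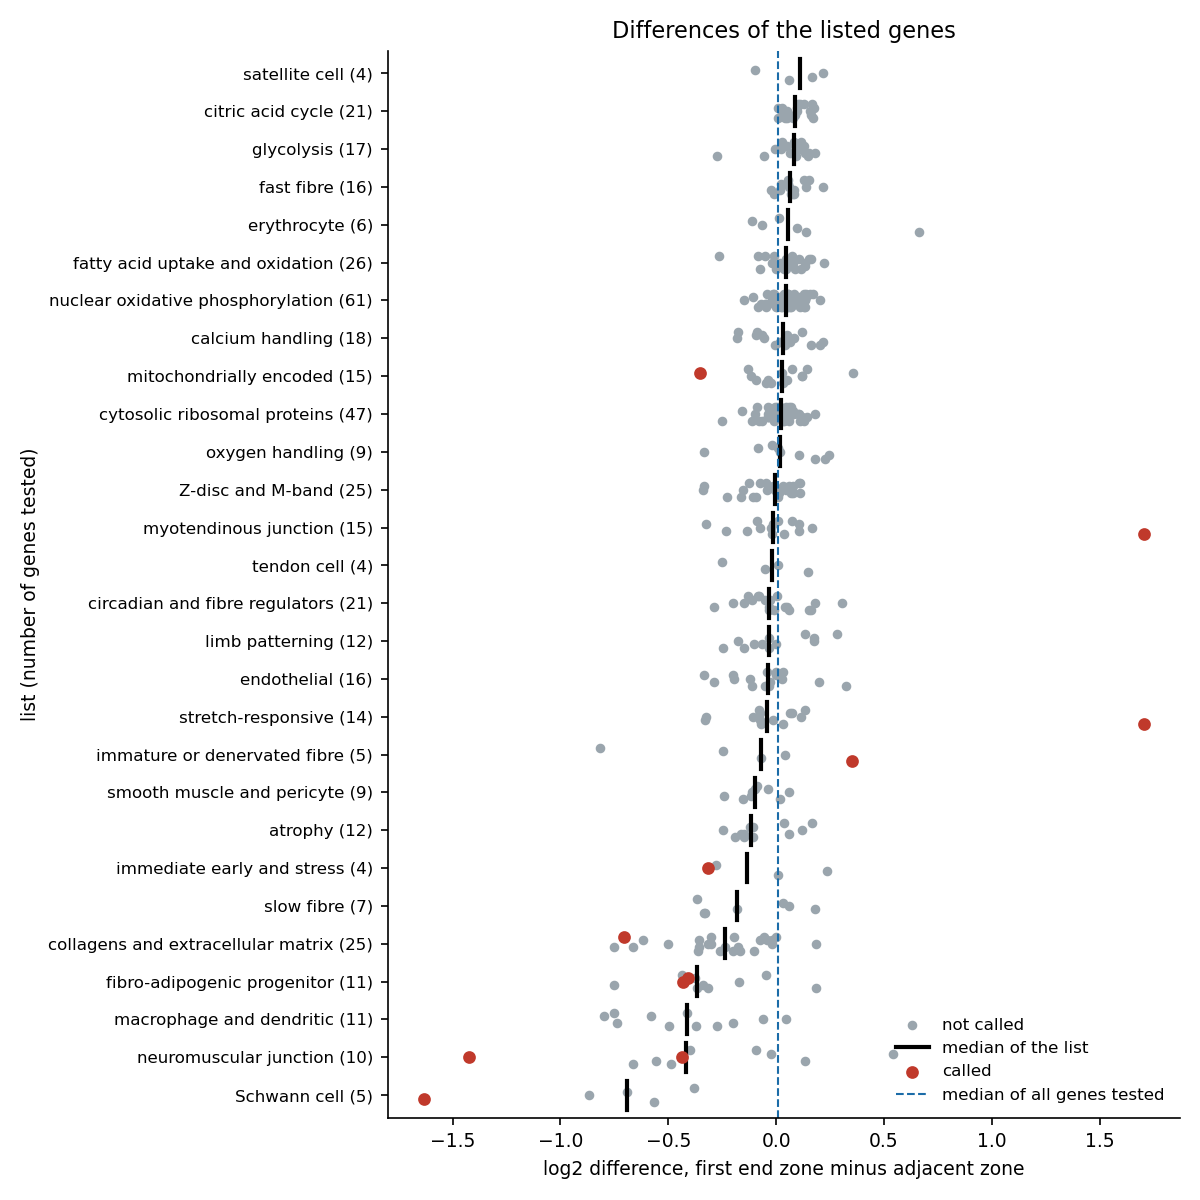
Log2 difference, first end zone minus adjacent zone, of each tested gene (points, called genes in red) in the lists with 4 or more genes tested, with the list's median (black bar) and the median of all genes tested (dashed line). The medians of Schwann cell, neuromuscular junction, macrophage and fibro-adipogenic progenitor genes lie at -0.69, -0.42, -0.41 and -0.37, and those of the metabolic lists at 0.05 to 0.09.

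The opposite end was measured in the same way, with 37 sections in the last zone (0.8 to 1) and 34 in the zone before it. There 51 of 8194 genes were called (0.622%), 17 higher and 34 lower at the last end. Of the 35 genes called at the first end 33 could be tested at the last, and 9 were called there too, all in the same direction: Mss51 and Net1 higher, and Chrne, Dcn, Lars2, Pfn1, Tpsb2, Gm15564 and Gm48099 lower. Mss51 differed by 0.70 ± 0.09 (SE) at the last end (edgeR adjusted p = 3.16e-06), Chrne by -1.05 ± 0.24 (edgeR adjusted p = 0.0214) and Dcn by -0.37 ± 0.07 (edgeR adjusted p = 0.00108). Ankrd1 differed by 0.67 ± 0.22 there and was not called (edgeR adjusted p = 0.166). Tested against each other, the steps at the 2 ends differed for 0 of 8903 genes with edgeR (598 at an unadjusted p of 0.05) and for 1 gene with DESeq2. For Ankrd1 the first step exceeded the last by 0.92 ± 0.38 (edgeR adjusted p = 0.641), so a difference between its steps was not shown.

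The 5-zone levels, on the scale of all 20 sums, show where the first end stands. Ankrd1 held 13.9 ± 7.50 CPM (SD, n = 4) at the first end, 4.43 ± 1.78 next to it, 2.25 ± 1.33 in the middle, 5.47 ± 2.02 after it and 9.31 ± 5.50 at the last end. Chrne had 3.40 ± 2.62, 8.92 ± 2.77, 6.66 ± 1.78, 6.70 ± 3.29 and 3.01 ± 2.51 CPM, low at both ends. Ccl21a had 6.38 ± 2.14, 10.9 ± 2.84, 5.93 ± 2.53, 2.08 ± 0.71 and 0.41 ± 0.44 CPM, highest in the adjacent zone and lowest at the last end.

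Muscles 1 and 2 carried 1 set of section barcodes and muscles 3 and 4 another. The zone difference differed between the sets for 2 of 7452 genes (0.0268%), Col1a1 and the non-coding Gm12381, by edgeR. Within the pairs, 15 genes were called in muscles 1 and 2 and 30 in muscles 3 and 4. Ankrd1 was called in both pairs, at 1.3 and 2.02 on the log2 scale, as were Mss51 (0.57 and 1.08), Chrne (-1.55 and -1.33), Mbp (-1.82 and -1.49) and Dcn (-0.46 and -0.41).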

How the data were processed

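Per the labels' protocols, section RNA was tagged with a 6-base molecular identifier (4096 possible) and an 8-base section barcode. The submitters' processing notes name STAR 2.7.7a and the GRCm38 build. The counting program, annotation and strand use are not stated there or in the labels. The deposited estimated counts are, from their values, identifier numbers corrected for repeats. The deposited filtered tables hold a normalized signal and served only to find the sections the authors kept. Entries naming several genes (0.58% to 0.93% of counts) were left out.

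Counts were summed per muscle and zone, rounded, filtered with filterByExpr and fitted with edgeR 4.0.16 (R 4.3.3, TMM, quasi-likelihood, muscle as block, 3 residual and 84.6 prior degrees of freedom). The block rests on the shared muscle. The fit was tested on simulated data. Alternatives used DESeq2 1.42.0 and limma 3.58.1. Coordinates come from GENCODE on GRCm38 (28689 of 28782 genes matched). Per-muscle differences use CPM plus 0.5.

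Members, lists and the naming rule were chosen with earlier results of these data known. The rule names up to 15 called rises and 15 falls of at least 10 CPM with 1 sign in all 4 muscles, without clones and pseudogenes, and called or leading list members. One listed gene is not reported here by name.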

Additional observations from a re-analysis of the deposited data

Results flagged for a closer look

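The log2 difference of mt-Rnr1 in muscle 4 was -0.81, far from the -0.15, -0.20 and -0.26 of muscles 1 to 3. It was picked out because its gap to the nearest muscle took 0.836 of the whole range, above Dixon's critical value for 4 samples. It was the only one of 65 differences and list medians checked in this way, where chance alone would pick about 1 in 20. In muscle 4 mitochondrial transcripts made up 66.5% of the first end zone and 71.8% of the adjacent zone. The differences are on the TMM scale. Its factors were 0.894 at the end and 0.778 next to it in muscle 4, against 0.974 and 1.15 in muscle 2. Whether the gap remains without these factors was not tested.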

How the results depend on the processing

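None of the 35 calls changed direction under the alternatives in which the gene was tested: all 20 for 30 genes, 19 for Gm19951, 18 for mt-Rnr1 and 17 for Mbp, Frem2 and Nhsl2. The counts of called, higher and lower genes (35, 8 and 27, 22.9% higher) were 2, 2 and 0 with DESeq2, run on 24764 genes without the filter (116 at an unadjusted p of 0.05), 0, 0 and 0 with no replicate block for the pairing of zones within a muscle (72 unadjusted), 14, 5 and 9 in the fit of all 20 sums, 15, 4 and 11 in muscles 1 and 2, and 20, 2 and 18 with equal section weights in limma (10% higher). They were 19, 6 and 13 with zone edges at 0.15 and 0.3, 15, 5 and 10 at 0.25 and 0.5, 20, 7 and 13 without the outermost 2 sections, 36, 13 and 23 with no filter on low counts, and 25, 8 and 17 without sections under 200000 transcripts, a setting added after seeing the data. Without 1 replicate they ranged from 17 to 38, 3 to 10 and 13 to 29. Of the 35 genes, 6 were called without each muscle in turn: Ankrd1, Chrne, Dcn, Gm15564, Gm48099 and Mss51. The comparison of the ends, also added later, gave 0 calls, 1 with DESeq2, 9 with no filter, 1 in muscles 1 and 2, 12 at edges of 0.25 and 0.5, and 0 to 1 without 1 replicate. The comparison of the barcode sets gave 2 calls, 0 with DESeq2, limma, edges at 0.25 and 0.5 or without the outermost 2 sections, 1 without mitochondrial genes or without shallow sections, 4 with upper-quartile scaling or no filter, 5 at edges of 0.15 and 0.3, and 1 to 19 without 1 replicate. Causes were not tested. Low counts limit Mbp and Chrne, whose end sums held 5 to 16 and 3 to 25 transcripts. They limit other calls too, among them Frem2, Nhsl2 and Gm19951.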
